A study of Mus musculus with 5 samples.

Results

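The potassium channel family was examined as the mouse genes whose symbols begin with Kcn, the root used for voltage-gated, inwardly rectifying, two-pore and calcium-activated potassium channels and for several of their auxiliary subunits. The rule took every protein-coding gene of the RefSeq table of GRCm38.p6, the assembly behind mm10, with such a symbol, which gave 94 of 21627 genes on chromosomes 1 to 19 and X. The peaks of the 5 libraries were merged wherever they shared at least 1 bp, which gave 86713 regions. Of these, 1432 lay in a Kcn gene or within 100 kb of one and form the Kcn regions described here. They fell into 111 regions at a gene start, 269 in a gene body and 1052 in the flanks, that is, outside the gene but within 100 kb. A region counted as lying at a gene start when it was within 1 kb of a start site listed by RefSeq, which 69 of the 94 genes had, or within 1 kb of either gene end for the other 25, whose start and end could not be told apart.

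The data were ATAC-seq peak lists, in which open chromatin is found by the cuts of a transposase, from the anterior part of the forelimb buds of mouse embryos at E11.5 with 40 to 48 somites. Each library was made from 50K cells, and the embryos had been genotyped one by one. The 2 control libraries had the genotype Prx+/+;Smarcc1c/c, so they carried the conditional Smarcc1 allele on both chromosomes but no Cre. The 3 mutant libraries had the genotype PrxCre/+;Smarcc1c/c. Prx-Cre is driven by a limb enhancer of Prrx1 and acts in limb mesenchyme, so ectoderm, and the nerve, muscle and blood vessel cells that enter the bud, mostly keep the allele. Smarcc1 codes for BAF155, part of the core of the nucleosome-remodelling complex BAF. As the samples are bulk tissue, fewer cells of a type and less accessibility in each of those cells cannot be told apart.

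Potassium channels let potassium ions leave or enter cells and so set the resting potential and end action potentials. Most were described in neurons, heart and muscle, but some act in embryonic patterning: Kcnj2, the inward rectifier Kir2.1, is needed for normal digits and palate in the mouse and in people. Voltage-gated pore subunits are made by the Kcna, Kcnb, Kcnc, Kcnd, Kcnf, Kcng, Kcns, Kcnv, Kcnh and Kcnq genes, of which those of Kcnf, Kcng, Kcns and Kcnv do not form channels on their own and modify Kcnb channels. Kcnj genes make inward rectifiers, Kcnk genes two-pore leak channels, Kcnma1 and the Kcnn genes calcium-activated channels, and Kcnt genes sodium-activated channels. Kcne, Kcnab, Kcnip and Kcnmb genes make auxiliary subunits.

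The promoters of 5 family members show the kinds of start found in the peak lists. Each is given by the 250 bases before its RefSeq start site (GRCm38.p6), 5′ to 3′ on the strand of the gene, with CpG dinucleotides in capitals. Kcnab2 at chr4:152477550-152477799 on the minus strand and Kcnt2 at chr1:140245468-140245717 on the plus strand had a peak in all 5 libraries and the strongest starts of the family, Kcnmb1 at chr11:33962763-33963012 on the plus strand had one in the controls only, and Kcnh8 at chr17:52602459-52602708 on the plus strand had none anywhere.
Kcnab2: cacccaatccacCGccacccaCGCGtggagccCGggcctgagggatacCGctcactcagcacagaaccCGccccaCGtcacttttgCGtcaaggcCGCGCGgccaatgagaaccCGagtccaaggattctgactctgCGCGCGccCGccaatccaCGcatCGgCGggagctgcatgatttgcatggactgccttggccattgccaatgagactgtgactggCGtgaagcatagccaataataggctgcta
Kcnt2: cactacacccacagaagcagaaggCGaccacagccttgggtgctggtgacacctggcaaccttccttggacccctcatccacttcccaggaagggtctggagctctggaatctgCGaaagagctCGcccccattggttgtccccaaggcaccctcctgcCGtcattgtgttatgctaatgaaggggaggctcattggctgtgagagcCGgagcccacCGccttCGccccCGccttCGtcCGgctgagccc
Kcnmb1: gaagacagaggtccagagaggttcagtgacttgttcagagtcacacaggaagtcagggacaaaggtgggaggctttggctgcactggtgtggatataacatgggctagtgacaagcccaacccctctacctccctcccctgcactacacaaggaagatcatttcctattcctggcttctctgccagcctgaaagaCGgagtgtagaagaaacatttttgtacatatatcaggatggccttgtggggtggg
Kcnh8: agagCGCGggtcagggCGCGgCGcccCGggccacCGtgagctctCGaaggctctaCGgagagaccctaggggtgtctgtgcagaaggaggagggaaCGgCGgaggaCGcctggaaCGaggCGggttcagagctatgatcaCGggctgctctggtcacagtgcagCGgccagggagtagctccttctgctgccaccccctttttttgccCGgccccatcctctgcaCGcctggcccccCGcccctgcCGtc
The Kcnab2 sequence holds 20 CpG, the Kcnt2 sequence 10, the Kcnmb1 sequence 1 and the Kcnh8 sequence 20. Kcnh8 is therefore as rich in CpG as Kcnab2 over these bases, although Kcnab2 was open in every library and Kcnh8 in none. The promoter of Kcnh6, at chr11:106007898-106008147 on the plus strand, is shown for a different reason: it is the single Kcn window with both parts of the REST element that were searched for, TTCAGCACC and GGACAG, here in capitals and separated by 7 bases.
Kcnh6: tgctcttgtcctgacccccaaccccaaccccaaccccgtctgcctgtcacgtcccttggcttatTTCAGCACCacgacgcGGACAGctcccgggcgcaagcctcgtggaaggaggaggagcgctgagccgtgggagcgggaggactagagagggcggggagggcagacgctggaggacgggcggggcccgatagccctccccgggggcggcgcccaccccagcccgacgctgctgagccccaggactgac
REST binds the full element and keeps neuronal genes silent outside neurons. The search asked only that both parts lie in the same window, at any spacing, and binding of REST to Kcnh6 was not tested. A peak covered this Kcnh6 window in 1 library, control 2, with a fold of 3.77.

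The peak lists differed in length between the genotypes, and every count below has to be read with this. Control 1 and 2 had peaks in 65278 and 56368 regions, and mutant 1, 2 and 3 in 32398, 38839 and 23634, so the mutants averaged 48.0% fewer. Regions at gene starts were 11.4% fewer in the mutants on average and all other regions 60.1% fewer. The deposited fold is the enrichment of a peak over its background within its own library and is not scaled between libraries. Folds are therefore given per library, and strength is expressed as a percentile within each list, where lists of unequal length allow no reading of a rise or fall. No read numbers are known, and a region without a called peak may still be accessible below the lowest fold listed, 2.29 to 2.52. With 2 controls and 3 mutants the exact two-sided permutation test cannot give a p below 0.2, so no difference could pass 0.05. The start of Smarcc1 itself had a peak in all 5 libraries, and peak lists do not show the deletion. Markers of limb mesenchyme were mostly open: Prrx1, Twist1 and Msx1 in all 5 libraries, and Prrx2, Tbx5 and Alx4 in all but mutant 3, which had the shortest list. Markers of other cell types were open as well at 3 of 6 neuronal, 4 of 5 crest and glial, 1 of 5 muscle, 1 of 5 endothelial, 2 of 5 ectodermal and 3 of 5 blood gene starts in all 5 libraries. Cdh5, Pecam1, Tie1, Rbfox3, Trp63, Krt14, Gata1 and Ptprc had no peak at a start in any library. Stmn2, a neuronal gene, and Myf5, a muscle precursor gene, had a start peak in both controls and no mutant, and the part of such cells in the results below was not tested.

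Channel genes were often open at their starts in the limb bud. A peak lay at the start of 68 and 73 of the 94 genes in controls 1 and 2, and of 62, 65 and 49 in mutants 1, 2 and 3. At 47 genes (50.0%) it was found in all 5 libraries, at 30 in some of them and at 17 (18.1%) in none. Among all protein-coding genes these shares were 57.6% for all 5 libraries and 32.0% for none. Genes called in only a part of the libraries thus made up the remainder, 30 of the 94 channel genes and 2248 of all 21627. These are counts of genes and not of embryos, and the difference was not tested.

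Pore subunits of voltage-gated channels were counted together with the Kcnab genes, 43 genes in all. A start peak lay at 34 and 38 of them in controls 1 and 2, and at 34, 35 and 27 in mutants 1, 2 and 3. Of the 34 with one in both controls, none lacked it in all mutants, and 26 genes had it in every library. Both Kcnb genes, which make delayed rectifiers, and Kcnf1, which modifies them, were open throughout, as were 5 of 8 Kcna genes and 3 of 4 Kcnc genes. Kcnh8 and Kcna10 were among the 5 genes of this class with no start peak.

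Inward rectifiers were open at fewer starts, in 7, 9, 6, 7 and 5 of 15 genes. In all 5 libraries 5 Kcnj genes had a peak, and 5 had none. Kcnj2 was the strongest of them: the region chr11:111064560-111067040 over its start had folds of 10.7 and 10.1 in the controls and of 8.33, 10.2 and 8.07 in the mutants. Its percentile within the lists ran from 87.0 in mutant 3 to 94.7 in control 1, so the Kcnj2 start was near the top of every list. Two-pore channels had a start peak in 10, 10, 11, 11 and 7 of 14 genes, led by Kcnk5 at chr14:20180499-20182256 with folds of 9.36 and 7.95 in the controls against 7.25, 8.05 and 7.57 in the mutants.

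Calcium- or sodium-activated pore subunits were counted together with Kcnu1 and had a start peak in 6, 6, 5, 5 and 5 of 8 genes. Kcnu1 itself had none in any library. Kcnt2, a sodium-activated channel of the Slack family, had the strongest start of all Kcn genes by mean percentile in the controls. Its region chr1:140245148-140246686 had folds of 14.6 and 14.3 in the controls and of 9.26, 7.88 and 9.42 in the mutants. The percentiles were 99.2 and 98.7 in the controls against 92.6, 83.4 and 92.7 in the mutants. Kcnn1, a small-conductance calcium-activated channel, had folds of 10.9 and 11.45 in the controls and of 9.10, 10.2 and 9.25 in the mutants at chr8:70862651-70866624.

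The auxiliary subunits were mixed. All 3 Kcnab genes, whose products are cytoplasmic beta subunits of Kcna channels, had a start peak in every library. The Kcnab2 region chr4:152476452-152478769 had folds of 12.7 and 11.6 in the controls and of 12.03, 11.0 and 10.6 in the mutants, and its percentile was 95.0 or more in every list. That region also lies at the start of Nphp4, a ciliary gene that begins next to Kcnab2, and the signal of the pair cannot be told apart. Of the 5 Kcne genes, single-pass subunits of Kcnq and other channels, none had a start peak in all 5 libraries. Kcne starts had a peak in 4 and 3 genes in the controls and in 2, 1 and 0 in mutants 1, 2 and 3. Over the 13 Kcne, Kcnip and Kcnmb genes, without Kcnab, the counts were 11 and 10 in the controls against 6, 7 and 5 in the mutants. The groups did not overlap, which was also so for all 94 Kcn genes and for all protein-coding genes, with start peaks at 14318 and 14139 genes in the controls and at 13484, 13888 and 12700 in mutants 1, 2 and 3.

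**Figure D1:**
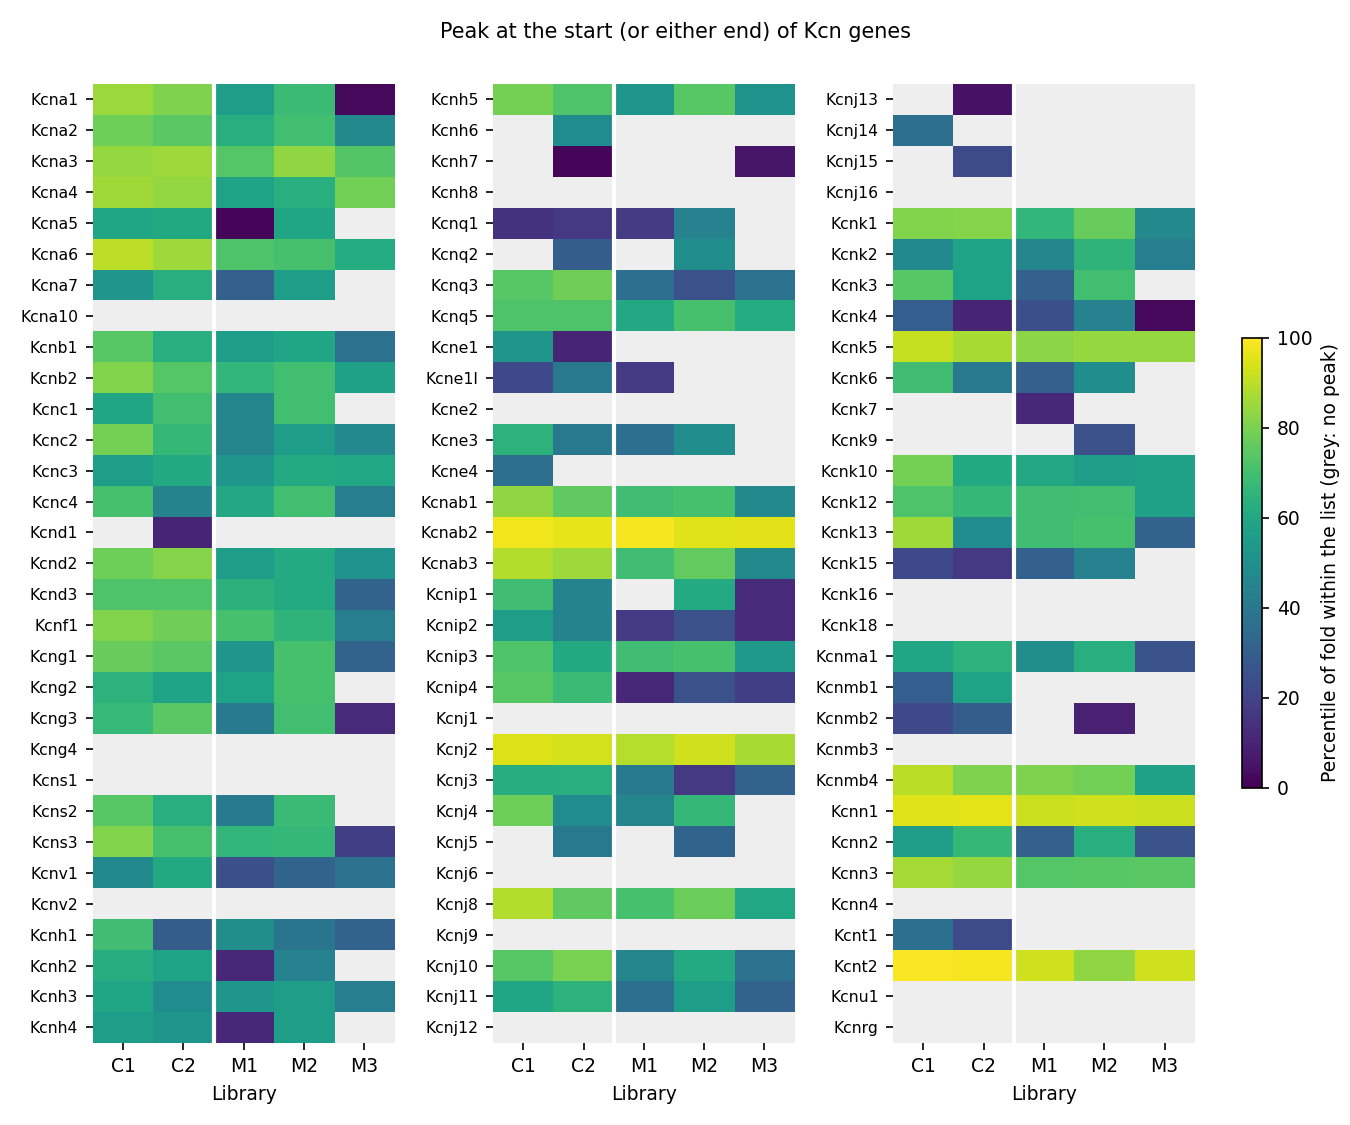
Presence and strength of a peak at the start of Kcn genes (rows) in the 2 control (C) and 3 mutant (M) libraries (columns). Colour is the percentile of the authors' fold within that library's list, and grey means no peak. Beside genes with a peak in every library and the 17 with none, 30 genes are called in only some libraries, and mutant 3 has the most grey cells.

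A start peak was found in both controls at 66 Kcn genes. Of these, 3 had none in any mutant (4.55%), against 267 of 13921 protein-coding genes with a start peak in both controls (1.92%). The 3 genes were Kcne1, Kcnmb1 and Kcnt1. Kcne1, the subunit that slows Kcnq1 channels in heart, had folds of 4.16 and 2.83 at chr16:92358749-92359230. Kcnmb1, the smooth muscle beta subunit of the large-conductance channel, had folds of 3.47 and 4.18 at chr11:33962427-33963187. Kcnmb1 lies wholly within the body of Kcnip1, on the same stretch of chromosome 11. Kcnt1, the other sodium-activated channel, had folds of 3.64 and 3.10 at chr2:25863846-25864110. The RefSeq start table used here lists no site for Kcne1 and Kcnt1, so these regions lie at one end of the gene. Their percentiles in controls 1 and 2 were 52.2 and 10.2 for Kcne1, 29.8 and 58.1 for Kcnmb1, and 36.7 and 23.0 for Kcnt1. All 3 were thus below the medians of all start regions in the controls, 85.0 and 84.3. As few as 3 genes do not allow a difference from 1.92% to be read.

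Most of the missing start peaks were missing from mutant 3. Of the 66 genes, 5 lacked the peak in mutant 1, 4 in mutant 2 and 18 in mutant 3, which is 7.58%, 6.06% and 27.3% (mean 13.6% ± 11.8, SD, n = 3). Among all protein-coding genes the same shares were 4.45%, 2.95% and 9.28% (mean 5.56% ± 3.31, SD, n = 3). At 13 Kcn genes the peak was missing from mutant 3 alone: Kcna5, Kcna7, Kcnc1, Kcne3, Kcng2, Kcnh2, Kcnh4, Kcnj4, Kcnk3, Kcnk6, Kcnk15, Kcnq1 and Kcns2. All 3 mutants kept the start peak at 47 of the 66 genes (71.2%), and mutants 1 and 2 kept it at 60 (90.9%). The corresponding shares for all genes were 89.5% and 94.8%. When every list was shortened to its strongest 27194 peaks, the length of the list of mutant 3, start peaks were found at 46 and 48 Kcn genes in the controls and at 51, 57 and 48 in the mutants. Of 38 genes then open in both controls, 5 lacked the peak in mutant 3 (13.2%), 3 in mutant 2 (7.89%) and 2 in mutant 1 (5.26%), and none lacked it in all 3. Over all protein-coding genes at this list length the shares were 2.70% in mutant 3, 1.45% in mutant 2 and 1.96% in mutant 1, so the Kcn shares were above them in each mutant, though on 2 to 5 genes. The lower number of channel starts in the mutants was thus not seen at equal list length.

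Kcn starts were weaker and narrower than gene starts in general. The median percentile of Kcn start regions was 67.1 and 58.1 in the controls against 45.6, 58.7 and 42.8 in the mutants, against 85.0 and 84.3 in the controls against 78.3, 80.3 and 73.1 in the mutants for all regions at gene starts. Their median width was 871 bp, and that of all start regions 1268 bp. Over all regions of both controls, 2781 of 4057 with a mean control percentile from 0 to 25 had no mutant peak. It was 6176 of 11781 from 25 to 50, 4206 of 14003 from 50 to 75 and 580 of 15317 from 75 to 100. The share thus fell with strength, while most of the regions without a mutant peak were not in the weakest group. Any link to the missing Kcn start peaks was not tested.

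The sequence of the promoters varied with the number of libraries in which they were open. RefSeq listed 94 promoter windows of 300 bases for 69 of the Kcn genes, from 250 bases before to 50 after each start site. Their CpG content was given as the observed number over the number that the C and G content would yield by chance order. The median of this ratio was 0.241 for the 32 windows with a peak in no library, 0.421 for the 38 with a peak in 1 to 4 libraries and 0.688 for the 24 with a peak in all 5. Over all 21044 windows of protein-coding genes the medians were 0.185, 0.485 and 0.800, so the Kcn windows followed the same order. By a ratio of at least 0.6 and a GC content of at least 50%, 26 Kcn windows (27.7%) were rich in CpG, against 45.6% of all windows. Of these 26, 14 (53.8%) had a peak in all 5 libraries, against 87.9% of all CpG-rich windows, and 5 (19.2%) had none, against 2.70%. The 5 windows were those of Kcnd3, Kcnh7, Kcnh8 and Kcns1 and the CpG-rich window of Kcnj6. A window without a peak is not always a start without one. Within 1 kb of the start site but outside the window, Kcnd3 had a peak in 5 libraries and Kcnh7 in 2. These counts of windows share libraries and in part genes, and the difference in shares was not tested.

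**Figure D2:**
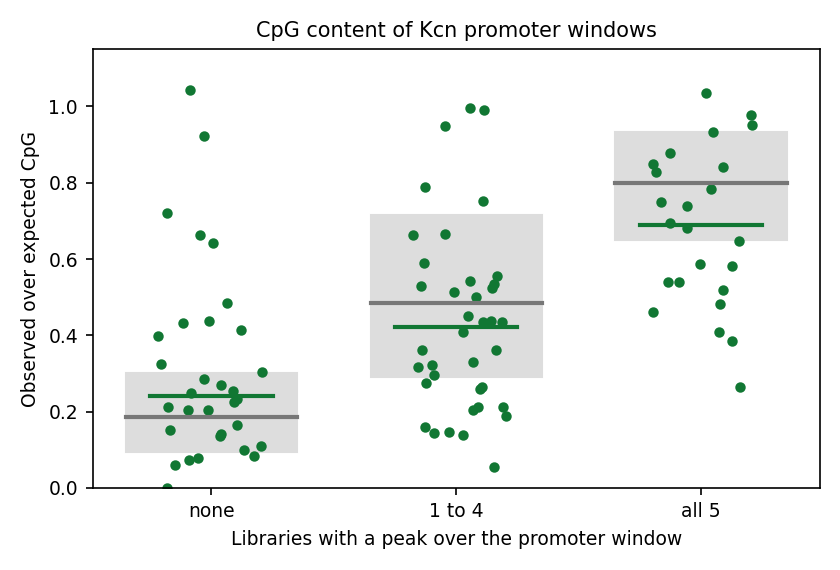
Observed over expected CpG of Kcn promoter windows (green dots, median as a green line) by the number of libraries with a peak over the window. Grey boxes span the middle 50% of all protein-coding promoter windows and the grey line is their median. The Kcn medians are 0.241, 0.421 and 0.688 from left to right.

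Motif matches were rare. On both strands, TTCAGCACC was present in 1 of the 94 Kcn windows (1.06%) and in 0.418% of all windows, and with GGACAG in the same window in 1.06% and 0.105%. The GLI motif GACCACCCA occurred in none of the Kcn windows and in 0.181% of all. With 1 match and 0 matches nothing was compared.

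The family as a whole had fewer called regions in the mutants. Control 1 and 2 had a peak in 995 and 934 Kcn regions, and mutants 1, 2 and 3 in 613, 815 and 441. The means were 964.5 ± 43.1 (SD, n = 2) and 623 ± 187 (SD, n = 3), 35.4% lower in the mutants, with no overlap of the groups (exact permutation test, two-sided, p = 0.2, the smallest possible). At gene starts there were 88 and 91 regions in the controls against 73, 85 and 55 in the mutants, 20.7% fewer on average. In gene bodies there were 186 and 150 against 68, 88 and 46, 59.9% fewer. In the flanks there were 721 and 693 against 472, 642 and 340, 31.4% fewer. Each of these 3 comparisons also had groups that did not overlap and p = 0.2 by the same exact permutation test. With lists of equal length the order turned for all Kcn regions (50.5 more per mutant library), for starts (7.83 more) and for flanks (44.2 more). In bodies the means were then 46.5 in the controls and 45 in the mutants, which overlapped (exact permutation p = 1). The lower counts in the mutants were thus not seen among the strongest 27194 peaks of each list.

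**Figure D3:**
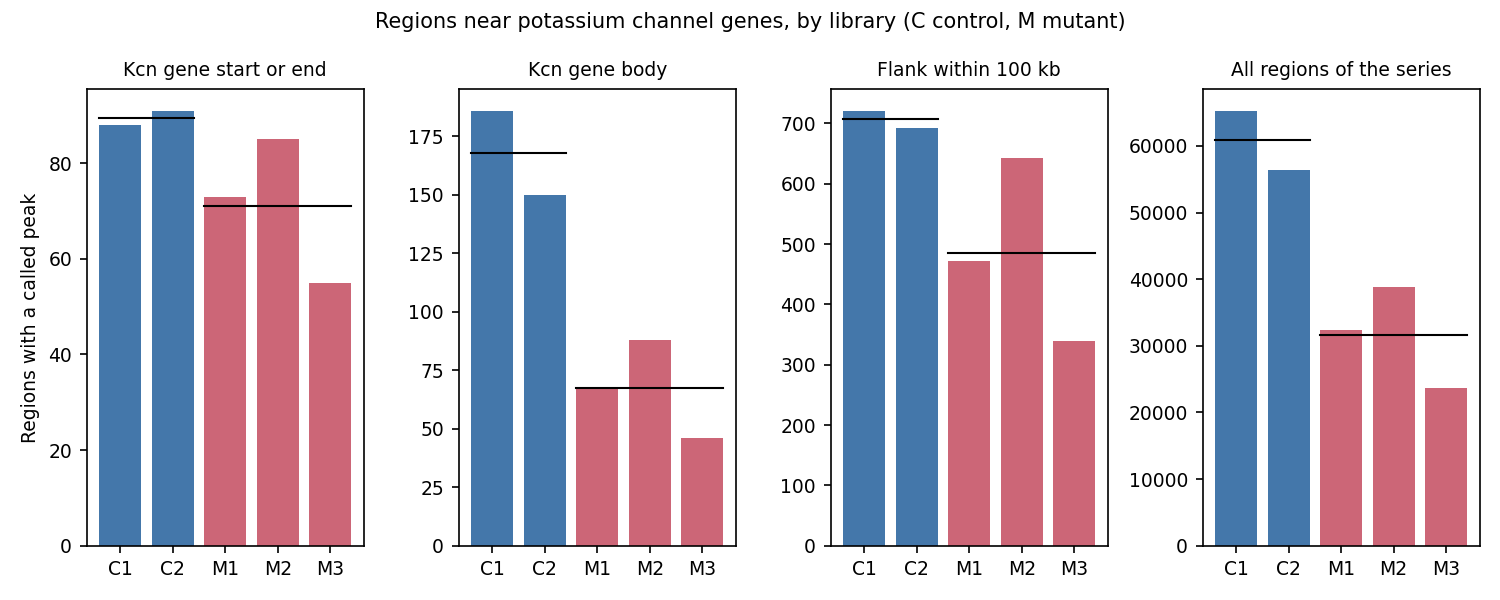
Number of Kcn regions with a called peak in each control (C) and mutant (M) library, at starts, in bodies and in flanks, and of all regions of the series. Each bar is 1 library and starts at 0, and black lines are group means. All 4 counts are lower in each mutant than in either control, most of all in gene bodies, with 186 and 150 against 68, 88 and 46.

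As a share of each list the family was not smaller in the mutants. Kcn regions made up 1.52% and 1.66% of all regions in the controls against 1.89%, 2.10% and 1.87% in the mutants (1.59% ± 0.0938, SD, n = 2, against 1.95% ± 0.127, SD, n = 3, exact permutation p = 0.2). Much of this share came from neighbours: 286 of the flank regions lay at the start of another gene, and these were called in 244 and 241 regions in the controls and in 227, 255 and 200 in the mutants. The share of starts and bodies of the channel genes themselves was nearly level, with 0.420% and 0.428% in the controls against 0.435%, 0.445% and 0.427% in the mutants. Of the 1432 regions, 454 had the end of a Kcn gene nearest to them. In these the difference between the mean shares was -9.37e-05 percentage points, so the higher share in the mutants was not seen there. It was seen in the regions within 1 kb of the gene, with mean shares of 0.430% in the controls and 0.449% in the mutants. Within 25 kb the mean shares were 0.723% and 0.800%. In each of these distance settings the groups did not overlap. The median percentile of fold over Kcn regions was 52.2 and 52.3 in the controls against 49.5, 52.9 and 50.9 in the mutants, which overlapped (exact permutation p = 0.6). This changed with the regions taken. Within 1 kb of the gene the means were 50.5 in the controls and 41.2 in the mutants, by nearest gene end 46.3 and 41.2, at −log10 q of at least 5 they were 67.8 and 63.2, at 10 or more 81.2 and 79.6, and at equal list length 78.7 and 58.8. In each of these 5 settings the groups did not overlap (exact permutation p = 0.2). The groups overlapped within 25 kb, with means of 50.5 and 45.8 (exact permutation p = 0.4). They also overlapped with summits within 250 bp, with means of 52.26 and 52.20. Percentiles were taken in the full lists, whose lengths differ, so no fall in strength is read from them. At equal list length the cut by itself raises the percentiles of the longer control lists, so that comparison is no test.

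Of the Kcn regions, 717 had a peak in both controls, and 128 of these had none in any mutant (17.9%). Over all regions of both controls it was 13743 of 45158 (30.4%). By position, the Kcn counts were 6 of 79 at starts (7.59%), where all gene starts gave 3.98%, and 39 of 103 in bodies (37.9%), where all regions away from gene starts gave 42.4%. In the flanks they were 83 of 535 (15.5%), of which 3 of 224 at starts of other genes (1.34%) and 80 of 311 elsewhere (25.7%). Taken over the 1034 Kcn regions away from any gene start, the count was 119 of 413 (28.8%), below the 42.4%. With 1 control the count of control-only regions was larger, since a peak then had to be called only once. It was 296 of 952 without control 1 (31.1%, against 41.0% of all regions). Without control 2 it was 371 of 1022 (36.3%, against 47.8%). At equal list length it was 25 of 364 (6.87%), against 13.4% of all regions, and 23 Kcn regions were then found in all mutants and no control.

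The lower share was present at each level of strength. Strength was the mean percentile of fold in the 2 control lists. Among Kcn regions away from gene starts, 27 of 45 (60.0%) in the weakest of 4 equal steps of the scale were absent from all mutants, 54 of 149 (36.2%) in the next, 34 of 161 (21.1%) in the third and 4 of 58 (6.90%) in the strongest. For all regions away from gene starts these shares were 70.3%, 55.7%, 35.4% and 10.9%. Absence from the mutants thus followed strength in the channel family as it did in the whole series. Regions of one gene neighbour each other and come from the same 5 libraries, so these shares carry no test.

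**Figure D4:**
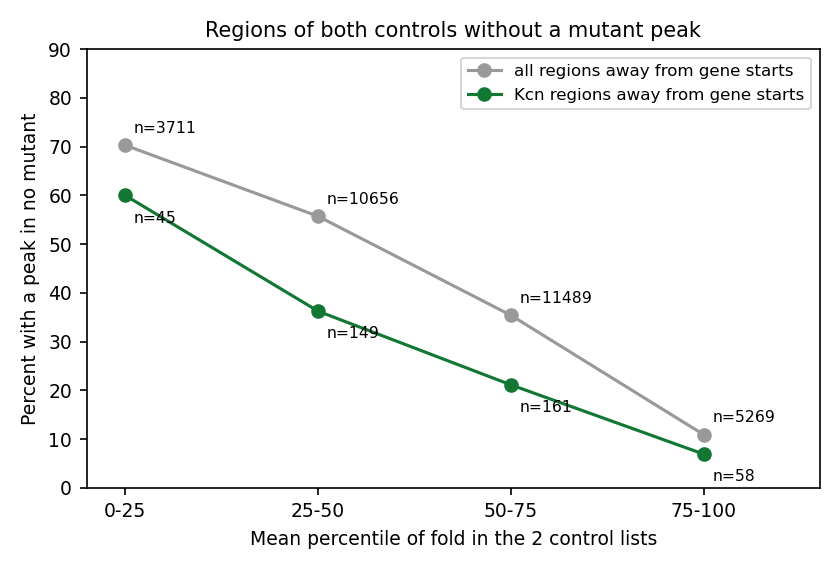
Percent of regions found in both controls that had a peak in no mutant, by the mean percentile of fold in the control lists, for Kcn regions (green) and all regions (grey), both away from gene starts. The Kcn points fall from 60.0% to 6.90% and lie under the grey points at all 4 levels.

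Gene bodies of the family held fewer peaks for their length than gene bodies in general. There were 17.4 and 14.0 body peaks per Mb of Kcn gene in the controls against 6.37, 8.24 and 4.31 in the mutants, over 10.7 Mb, and 25.7 and 21.0 against 9.61, 14.0 and 5.49 over all protein-coding bodies. The difference between genotypes was of like size, 59.9% lower in Kcn bodies and 58.4% lower in all. By role, 12 of 36 body regions of both controls were absent from all mutants in voltage-gated pore and Kcnab genes (33.3%). It was 3 of 10 in inward rectifiers (30.0%) and 1 of 5 in two-pore channels. It was 9 of 18 (50.0%) in calcium- or sodium-activated pore genes and 14 of 34 (41.2%) in Kcne, Kcnip and Kcnmb genes. The 42.4% of all regions away from starts lies within this range.

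Control-only regions at starts and in bodies fell in 25 of the genes. At least 1 own region, at the start or in the body, was open in both controls in 75 of the 94 genes, and 25 of these 75 (33.3%) had at least 1 such region without a peak in any mutant. Over all protein-coding genes it was 3597 of 15171 (23.7%). The share varied with gene length: among genes over 200 kb, a limit set after the values were seen, it was 12 of 16 Kcn genes (75%) and 775 of 950 genes in all (81.6%). In 6 genes there were 3 or more: Kcnip1, Kcnip4, Kcnma1, Kcnq1, Kcnt2 and Kcnmb2. All 6 are over 200 kb long. No count of 3 or more over all protein-coding genes is given, so this is not read as a trait of channel genes. These were picked out after their counts were seen.

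Kcnip4, at chr5:48389503-49525122 and 1136 kb long, had the most own regions open in both controls, 14. Its product is a calcium-binding subunit of Kcnd channels. Of the 14, 4 had no peak in a mutant and 2 had one in all 5 libraries. Over all its own regions, peaks numbered 18 and 16 in the controls against 10, 2 and 8 in mutants 1, 2 and 3, so here mutant 2, the mutant with the longest list, had the fewest. The strongest control-only region, chr5:48402412-48403007 in the body, had folds of 5.90 and 6.47. An alternative start at chr5:49285025-49285770 was also control-only, with folds of 4.33 and 3.50, whereas the start at chr5:48599169-48600057 had folds of 5.72 and 4.85 in the controls against 3.09, 3.28 and 3.36 in the mutants.

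Kcnip1, at chr11:33629339-33993348, makes a related subunit. It had 12 own regions open in both controls, 6 of them absent from all mutants and none present in all 5 libraries. Its own peaks numbered 16 in each control and 1, 5 and 2 in the mutants. The body region chr11:33928412-33929498 was the sole one with a peak in mutant 1, with a fold of 3.86, beside 4.85 and 4.58 in the controls against 2.79 in mutant 2. One start, at chr11:33992973-33993485, had folds of 5.20 and 3.64 in the controls against 3.12 in mutant 2, and no peak in mutants 1 and 3. Another start, at chr11:33843344-33843845, had folds of 4.68 and 2.96 in the controls against 4.60 and 3.20 in mutants 2 and 3. It had no peak in mutant 1. A further start region, chr11:33680303-33680518, had a peak in control 1 only, with a fold of 3.12.

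Kcnma1, at chr14:23292288-24005110, makes the pore of the large-conductance calcium-activated channel. Of 8 own regions open in both controls, 4 were absent from all mutants, all of them in the body. The strongest of these, chr14:23712108-23713218, had folds of 6.07 and 4.72. Its start at chr14:24003899-24005436 had a peak in all 5 libraries, with folds of 4.51 and 4.58 in the controls against 4.17, 4.76 and 3.53 in the mutants, so the start was kept in all 3 mutants while 4 of its 7 body regions of both controls were absent from them. In Kcnma1 the own peaks numbered 13 in each control and 5, 5 and 1 in the mutants. A further control-only region lay 76.7 kb outside the gene at chr14:24081852-24082560, nearer to Dlg5, with folds of 5.90 and 4.99.

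Kcnt2, at chr1:140245657-140614045, showed the same pattern at its strongest. Its start was open in every library, with the folds given above, while all 3 body regions of both controls lacked a peak in each mutant. The strongest of these, chr1:140409303-140410075, had folds of 5.72 and 5.79. Kcnmb2, which makes an inactivating beta subunit of the Kcnma1 channel, had a like pattern in its body: the 3 body regions of both controls were absent from all mutants, led by chr3:32059925-32060644 with folds of 5.90 and 5.12. Its start had a peak in mutant 2 only among the mutants, with a fold of 2.96.

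Kcnq1, at chr7:143106877-143427050, makes the pore of a slow cardiac and epithelial current and lies in an imprinted domain. It had 30 own regions, more than any other Kcn gene, of which 12 were open in both controls, 4 of these in no mutant and 3 in all 5 libraries. The own peaks numbered 20 and 18 in the controls against 6, 11 and 3 in the mutants. The region chr7:143295171-143297146 covers one end of the noncoding gene Kcnq1ot1, at chr7:143213111-143296547, the transcript that silences neighbouring genes on the paternal chromosome. Its folds were 6.76 and 9.97 in the controls against 6.17, 7.39 and 5.89 in the mutants, a peak in every library. The region chr7:143123283-143125235 had folds of 7.98 and 8.76 in the controls and of 3.24, 3.28 and 3.03 in the mutants. The 4 control-only regions all lay between chr7:143328155-143329588, with folds of 6.42 and 5.12, and chr7:143388750-143389850, with folds of 5.90 and 4.45. In this stretch no own region of both controls had a peak in a mutant, while 3 regions nearer the lower end of the gene were in all 5.

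**Figure D5:**
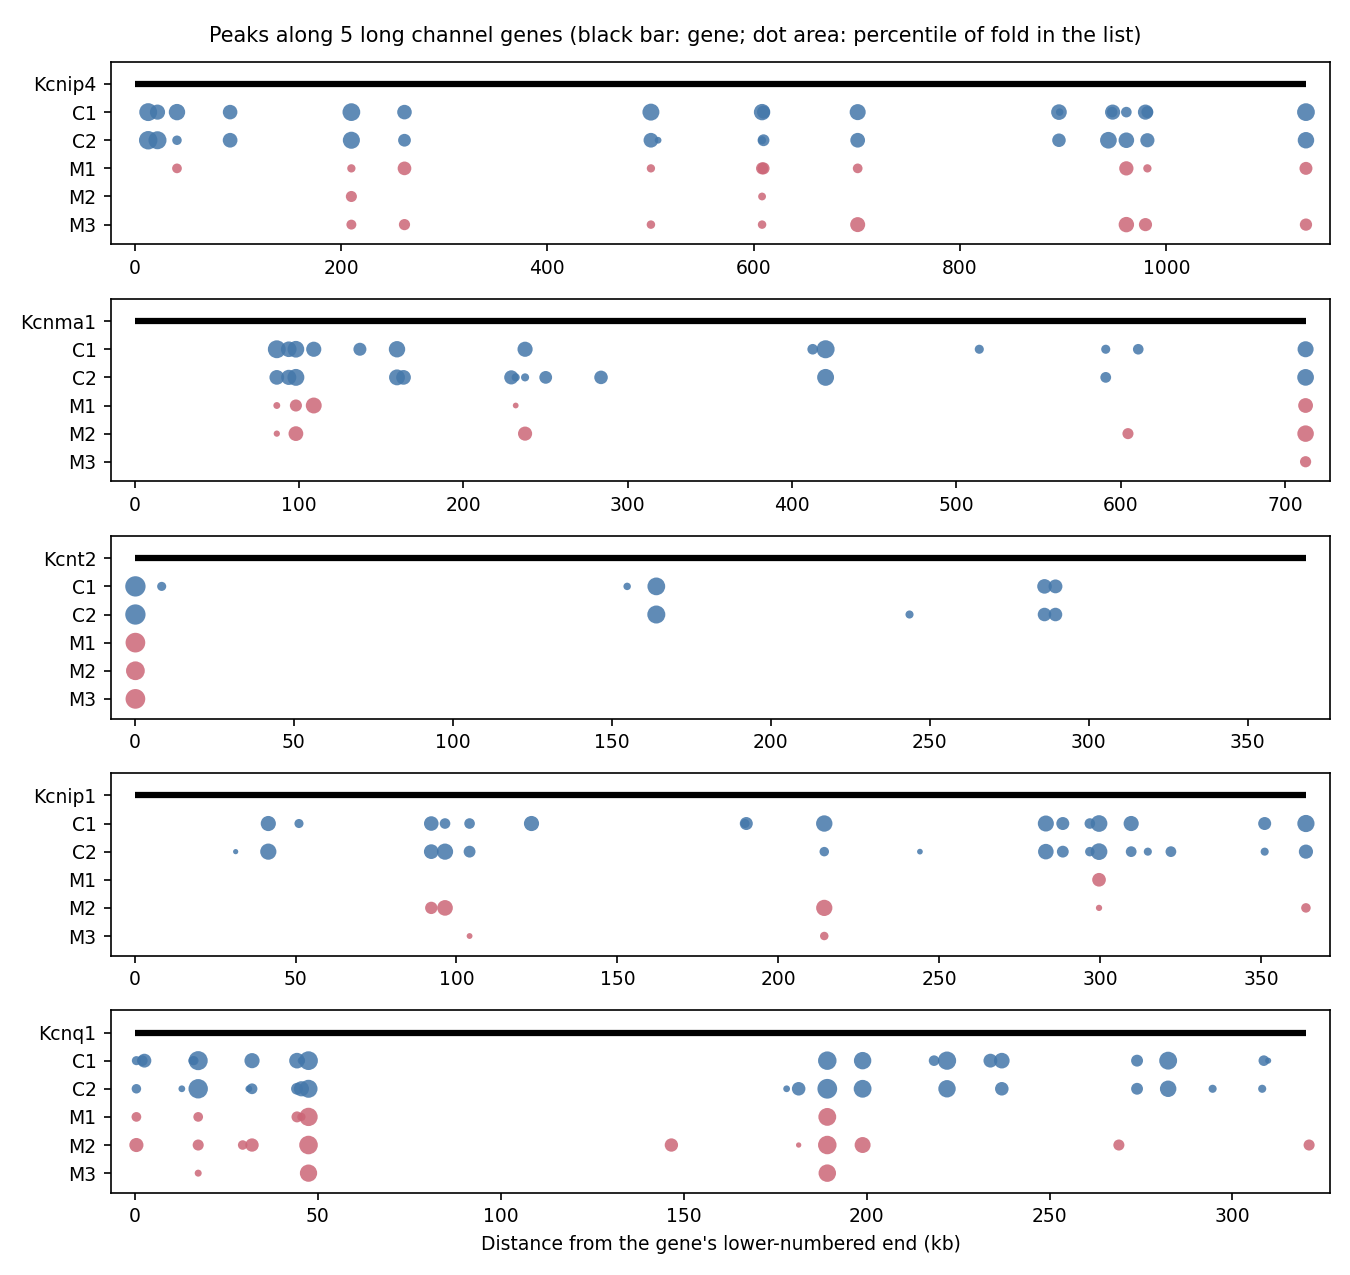
Called peaks along Kcnip4, Kcnma1, Kcnt2, Kcnip1 and Kcnq1 in each control (C) and mutant (M) library, by distance in kb from the lower-numbered end of the gene. A dot is a peak region, and its area is the percentile of fold within the list. Peaks are sparser in the 3 mutant rows than in the 2 control rows of each gene, and mutant 2 has 2 peaks in Kcnip4.

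The strongest control-only region of the whole family lay in the body of Kcnn3, a small-conductance calcium-activated channel, at chr3:89613527-89614407 with folds of 7.98 and 5.25. The second lay 61.6 kb from Kcnf1 and nearer to Pdia6, at chr12:17238526-17239408, with folds of 7.28 and 5.52. Of the 10 strongest, 4 lay in flanks: this one, that near Kcnma1, one 42.4 kb from Kcnv2 at chr19:27379616-27380553 with folds of 5.55 and 5.66, and one 9.34 kb from Kcnn4 at chr7:24394547-24395270 with folds of 5.55 and 5.12. All 4 had a gene end of another gene nearest to them, Pum3 for Kcnv2 and Smg9 for Kcnn4. A place in a flank does not tie a region to the channel gene.

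Other body regions were called in all 5 libraries. The strongest was in Kcnn2, another small-conductance channel, at chr18:45557854-45561140, with folds of 12.3 and 10.5 in the controls against 9.57, 11.496 and 10.6 in the mutants. The start class allows either end for Kcnn2, so an internal start could lie in this body region.

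With the full lists of all 5 libraries, few regions were found in the mutants alone. A peak in all 3 mutants and neither control was found at 2 Kcn regions of 1432 (0.140%), against 42 of 86713 (0.0484%) in the series. Without mutant 3, the shortest list, there were 15 such Kcn regions (1.05%), against 440 in the series (0.510%). Lists of equal length gave 23 (3.16%), against 677 (1.66%), so this count rested on mutant 3 and on list length. It was 5 with summits within 250 bp and without control 2, and 3 without control 1, mutant 1 or mutant 2. One lay 13.7 kb from Kcnab2 at chr4:152491297-152491840, inside Nphp4, with folds of 3.55, 4.93 and 4.04. The other lay 60.3 kb from Kcnk15, a two-pore channel, at chr2:163919142-163919669 and at the start of Rims4, with folds of 4.01, 2.96 and 3.70. Neither was in a Kcn gene. Single-library peaks were more common: mutant 2 had 171 Kcn regions that no other library had, 21.0% of its Kcn regions, against 17.9% of all its regions. These were weak, with folds of 2.63 to 3.94, and 134 of them lay in flanks.

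Other ion channel families of excitable cells were counted in the same way, against the 30.4% of all regions and the 42.4% of regions away from starts given above. For the 14 sodium channel genes, 21 of 94 regions in both controls were absent from all mutants (22.3%), for the 26 calcium channel genes 67 of 295 (22.7%) and for the 4 Hcn genes 7 of 49 (14.3%), beside 17.9% for Kcn. In bodies the counts were 6 of 15 (40.0%) for sodium channels and 42 of 92 (45.7%) for calcium channels, beside 37.9%. Starts were open in all 5 libraries at 4 of 14 sodium channel genes, 13 of 26 calcium channel genes and 4 of 4 Hcn genes, beside 47 of 94 Kcn genes. The 11 genes whose products join Kcn channels gave 24 of 98 regions (24.5%), with 12 of 19 in bodies (63.2%), and 5 had an open start in every library. Of the 185 partner regions, 23 were Kcn regions too, as were 2 of the 591 calcium channel regions, so these sets overlap. The partners open in every library included Abcc9, the sulphonylurea receptor that pairs with Kcnj8 and Kcnj11, and Akap9, which anchors Kcnq1, whereas Abcc8, the receptor form of the pancreas and brain, had no start peak in any library. No difference between these families was tested.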

How the data were processed

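ATAC-seq was done on 2 control and 3 mutant libraries of mouse forelimb bud, grouped by the labelled genotype. Replicates were numbered in accession order, which pairs nothing. Per the submitters' processing notes, bcl2fastq 2.20.0, Bowtie2 2.3.5 and MACS2 (version not given in the sources used here) were used with mm10. The same holds for its options, the removal of duplicates and any shift for the transposase cut. The authors deposited a separate list for each library, with 27194 to 68959 peaks. Each deposited row holds positions and a summit, a display score (not used), a fold enrichment ratio over background, a −log10 p-value (not used) and a −log10 q-value, in the MACS2 layout. The −log10 q-value served only to filter peaks. Read depth is unknown, so no counting interval was formed. The number of libraries limits precision.

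Peaks on chromosomes 1 to 19 and X were merged at 1 bp overlap, and regions were assigned to the nearest Kcn body within 100 kb. Start sites and promoter sequences came from RefSeq (GRCm38.p6). Group means were compared by exact two-sided permutation over libraries (Python 3.11.15, numpy 2.4.6, pandas 2.3.3), and figures were drawn with matplotlib 3.10.9. The region merging and counts were tested on simulated peak lists. Named genes were those of the 10 strongest control-only Kcn regions, of every mutant-only region, of the 5 strongest start and 5 strongest body regions in all 5 libraries, the 6 genes with the most own regions in both controls, and the gene with the most own regions in each subfamily, of which only some are described. One gene that this rule takes is not reported here. Others, named in counts, were added after their values were seen. The members and lists were chosen with earlier results of these data known. Alternatives were other distances (1 kb and 25 kb), the nearest gene end, −log10 q of at least 5 or 10, lists of equal length, summits within 250 bp, each library left out and, added later, either gene end for all genes and gene starts at equal list length.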

Additional observations from a re-analysis of the deposited data

How the results depend on the processing

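The counts of Kcn regions per library kept their direction under 12 of 13 settings for all regions and for starts, under 11 of 12 for flanks and under all 13 for bodies. The exception was lists of equal length, with mutant minus control differences of 50.5 (all), 7.83 (starts) and 44.2 (flanks), and bodies differed by only -1.5 there. The share of each list reversed with the nearest gene end alone, to -9.37e-05 percentage points. The cause was not tested. With each library left out in turn, the differences ranged from -446.5 to -250.5 for all Kcn regions, -27.5 to -10.5 for starts, -120.3 to -84.3 for bodies, -308 to -150 for flanks, 0.287 to 0.423 percentage points for the share and -2.48 to -1.09 for the median percentile. The last was -9.33 within 1 kb, -4.67 within 25 kb, -5.15 by nearest gene end, -4.57 and -1.56 at −log10 q of at least 5 and 10, and -19.8 at equal list length. At equal list length the cut kept only the upper part of the longer control lists. This raises their percentiles by itself, so the -19.8 is no test of strength. The control-only Kcn regions were 128 of 717 (17.9%), against 30.4% of all regions. They numbered 45 of 186 within 1 kb of the gene (24.2%), 65 of 318 within 25 kb (20.4%) and 58 of 217 by nearest gene end (26.7%), as fewer regions were counted. At −log10 q of at least 5 and 10 they numbered 85 (15.7%, against 27.9% of all regions) and 60 (18.6%, against 23.9%). Equal list length gave 25 (6.87%, against 13.4%). With a library left out their number ranged from 134 without mutant 3 (18.7%, against 31.9%) to 371 without control 2 (36.3%, against 47.8%). At 1 kb there are no flank regions, so that setting gives no flank value. No paired analysis was possible because the labels carry no replicate numbers. Depth per library is unknown, and a missing peak does not show closed chromatin.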
